A study of Mus musculus with 6 samples.

Results

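Bone morphogenetic protein (BMP) signalling was examined through 10 genes in the newborn mouse retina: the ligand genes Bmp2, Bmp4 and Bmp7, the receptor genes Bmpr1a, Bmpr1b and Bmpr2, the inhibitory Smad genes Smad6 and Smad7, and the homeobox genes Msx1 and Msx2. The genes were chosen by name and were 10 of the 39179 gene rows in each library. Retinal RNA of 6 mice was sequenced at postnatal day 0.5. All 6 animals were homozygous for a floxed Lhx2 allele (Lhx2 lox/lox) on a mixed, primarily CD-1, strain background. The 3 controls are labelled with no Cre, and the series text calls them wild type. The 3 conditional knockout animals (cKO) carried Pdgfrα-Cre in addition, so that the LIM homeodomain gene Lhx2 could be deleted only in cells in which the Pdgfra promoter had driven Cre. Libraries are named by their label numbers, and values are listed in the order control 2, 3, 4 and cKO 1, 2, 3.

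BMP ligands are secreted dimers that bring type I and type II receptors together. Bmpr1a and Bmpr1b encode type I receptors and Bmpr2 a type II receptor. The activated type I kinase phosphorylates Smad1, Smad5 and Smad9. These enter the nucleus with Smad4 and switch on target genes such as the Id genes and Msx genes, while Smad6 and Smad7, themselves induced by the pathway, hold it back. In the eye, Bmp4 and Bmp7 act in optic vesicle and lens formation, Bmp4 marks the dorsal retina, and Msx1 marks the ciliary margin.

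The 2 type I receptor genes among the members, Bmpr1a and Bmpr1b, gave the clearest contrast of the 10. They also differed in the sequence before the RefSeq start sites available here. The windows shown are the 250 bases before RefSeq start sites on GRCm38.p6, on the minus strand, 5′ to 3′. Capitals mark GGCGCC, a GC-rich element that Smad1 and Smad5 can bind, and GTCTG or its complement CAGAC, which holds the core of the Smad binding element. Bmpr1b has start sites that lie apart, and an upstream and a downstream window are given. Every Bmpr1b window lies inside the annotated gene (141837136 to 142169425, minus strand), and none covers its 5′ end at 142169425. The Bmpr1a window also lies inside its annotated gene (34410734 to 34503341, minus strand) and does not reach the 5′ end at 34503341. The contrast with Bmpr1a is therefore between these windows and not between the 5′ ends of the 2 genes.
Bmpr1b, upstream start, chr3:141982265-141982514: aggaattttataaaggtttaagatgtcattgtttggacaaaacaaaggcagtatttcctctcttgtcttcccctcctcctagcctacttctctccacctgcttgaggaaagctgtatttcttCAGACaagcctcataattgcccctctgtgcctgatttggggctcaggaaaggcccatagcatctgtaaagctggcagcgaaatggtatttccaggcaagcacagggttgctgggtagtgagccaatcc
Bmpr1b, downstream start, chr3:141931589-141931838: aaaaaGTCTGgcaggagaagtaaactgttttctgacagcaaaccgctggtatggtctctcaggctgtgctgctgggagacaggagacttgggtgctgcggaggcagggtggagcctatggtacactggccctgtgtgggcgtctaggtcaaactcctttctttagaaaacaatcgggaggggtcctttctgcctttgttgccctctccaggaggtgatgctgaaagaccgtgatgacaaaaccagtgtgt
Bmpr1a, chr14:34502547-34502796: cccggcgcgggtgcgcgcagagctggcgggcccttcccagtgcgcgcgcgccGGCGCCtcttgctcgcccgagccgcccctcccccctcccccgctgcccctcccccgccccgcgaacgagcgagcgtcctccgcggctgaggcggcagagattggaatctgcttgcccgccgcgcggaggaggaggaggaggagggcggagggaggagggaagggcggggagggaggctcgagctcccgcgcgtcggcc
The Bmpr1a window was 78.8% G or C, with 36 CpG dinucleotides and 1 GGCGCC. The Bmpr1b windows shown were 46.8% and 52.8% G or C, with 1 and 5 CpG dinucleotides, 0 GGCGCC and 1 CAGAC or GTCTG each. Another Bmpr1b window of the table, chr3:141931421-141931670, overlaps the downstream one and is not shown. It was 56.4% G or C, with 5 CpG dinucleotides and 0 matches to either Smad motif. The median over all 32851 windows of the table was 52.4%, and on either strand GGCGCC was in 9.59% of them and GTCTG or CAGAC in 42.19%. Another motif, TAATTA, a core sequence bound by many homeodomain proteins, was in 4.84% of all windows and in 0 windows of Bmpr1a and Bmpr1b. RefSeq windows were matched for 7 of the 10 members, Bmp4, Bmpr1a, Bmpr1b, Bmpr2, Smad6, Msx1 and Msx2. Among these, Bmpr2 held 1 GGCGCC and Msx2 1 TAATTA. These are matches of letters and not shown to be sites of binding.

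The libraries held 31483170 to 66947478 reads on genes. They fell into 2 library sets that cross genotype, set A (control 2, cKO 1 and cKO 2) with more than 2.9% of deposited counts ambiguous between genes and set B (control 3, control 4 and cKO 3) with less. Set has no counterpart in the labels. With genotype in the model, 63.7% of all genes tested differed between sets at adjusted p under 0.05, so comparisons of genotype carry set as a term. By Y-linked genes 2 controls, control 2 and control 4, were male and the other 4 libraries female, so that sex partly moves with genotype. Levels are in CPM, counts scaled to a common total by library sizes that were adjusted with TMM, a scaling method of edgeR. Lhx2, the deleted gene, stood at 399, 266 and 258 CPM in the controls against 252, 287 and 224 CPM in the cKO libraries. Its log2 fold change was -0.40 (SE 0.10, edgeR adjusted p = 0.0338). Without the set term it was -0.27 (adjusted p = 0.817). Gene counts include exons outside a deleted part, so this checks the labels only weakly. Summed CPM of lens markers, such as the crystallin Cryaa, was 2.51 to 5.92 in controls and 825 to 2211 in cKO, and 10 of 13 lens markers rose. Rises also passed for 7 of 7 ganglion cell, 6 of 7 microglial, 7 of 10 endothelial, 5 of 8 pericyte and mural, 5 of 10 ciliary margin and 1 of 6 astrocyte markers. Falls passed for 7 of 8 progenitor, 2 of 7 photoreceptor precursor and 1 of 10 endothelial markers. Of all genes tested, 6.36% rose and 5.63% fell. The part of these cell types in the results below was not tested.

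Levels of different genes can be compared only per length, so CPM per kilobase of merged exon (RPKM) were used for the order of the members. In controls the receptor gene Bmpr1a was the highest, at 29.5 ± 2.91 RPKM (mean ± SD, n = 3, as for all levels below), with no overlap with the next gene. Smad7 (6.09 ± 0.740), Bmpr2 (4.03 ± 2.29), Bmp7 (2.91 ± 0.675) and Smad6 (2.81 ± 0.992) followed, each neighbour overlapping the next in its range. Bmpr1b (1.39 ± 0.614 RPKM) and Bmp2 (0.591 ± 0.118 RPKM) stood apart from their neighbours below and above. Msx1 and Bmp4 overlapped at 0.186 ± 0.189 and 0.159 ± 0.191 RPKM, and Msx2 was the lowest at 0.0105 ± 0.00944 RPKM. By cKO mean Bmpr1b, at 3.11 ± 1.42 RPKM, ranked 3 instead of 6. Bmp7 (3.06 ± 0.726) came before Bmpr2 (2.5 ± 2.83), with overlap of each with the next. The other members kept their order. In set A Bmp7 was above Bmpr2 in every library of either genotype, and in set B it was below. Bmpr1b was above Bmp7 in cKO 3 alone, at 4.71 against 2.31 RPKM. In cKO 1 and cKO 2 Bmpr1b stood at 1.98 and 2.65 RPKM, under Bmp7 at 3.11 and 3.76 RPKM. Summed by role, the ligand genes stood at 3.66 ± 0.794 RPKM in controls and 3.66 ± 0.630 RPKM in cKO, the receptor genes at 34.9 ± 5.72 and 26.8 ± 9.64, the inhibitory Smad genes at 8.90 ± 1.3 and 7.0 ± 1.36, and the Msx genes at 0.196 ± 0.190 and 0.133 ± 0.0239 RPKM. These levels do not carry set as a term, and the groups hold unequal numbers of libraries of each set. Within set B the receptor sums were 39.1 and 37.3 RPKM in controls and 37 RPKM in cKO, and within set A they were 28.4 RPKM in the control and 17.9 and 25.4 RPKM in cKO.

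**Figure D1:**
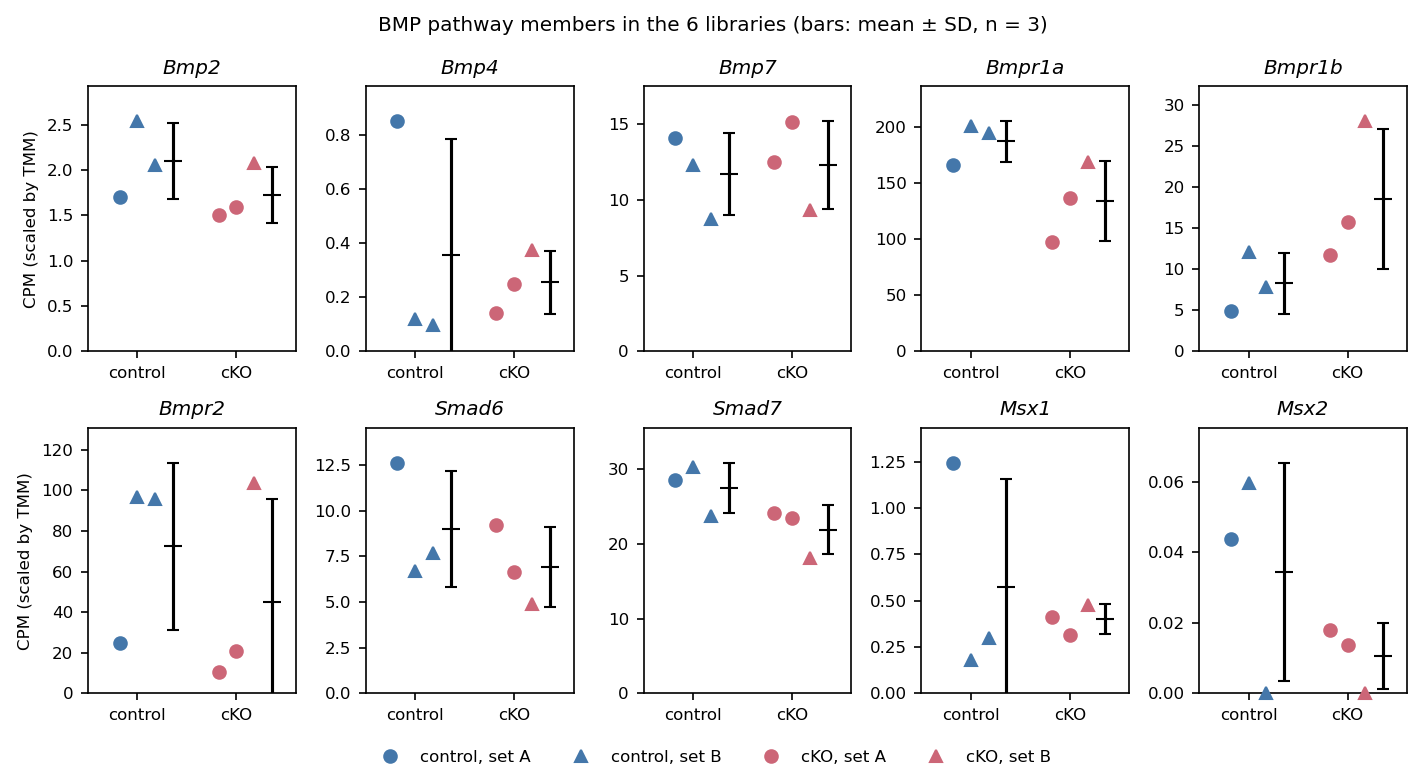
Expression of the 10 members in CPM, each panel on its own linear axis from 0, with 1 point per library (circles set A, triangles set B) and black bars for mean ± SD of each group (n = 3; bars are cut at 0). Bmpr1b is higher in cKO than in control libraries of the same shape, Bmpr2 follows the shape rather than the colour, and the high control points of Bmp4 and Msx1 are the same library, control 2.

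Of the 9 members that passed the filter on low counts, Bmpr1b alone changed between genotypes, and it rose. Against this, 12% of all 16691 genes tested passed at adjusted p under 0.05 (6.36% higher and 5.63% lower in cKO), so 1 of 9 is near the background share. The CPM values of the 3 cKO and the 3 control libraries overlapped for every one of the 10 members, while 13.9% of genes tested showed no overlap (8.38% with every cKO value above every control). At an unadjusted p under 0.05, 4 of the 9 passed (Bmpr1b, Smad6, Smad7 and Bmpr1a), where the share of all genes was 26.3%. Of the 9 fold changes, 8 were negative, none of them with a call, where 50.1% of all genes tested had a negative fold change. The median of the 9 was -0.37 on the log2 scale beside -0.001 over all genes tested.

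Bmp7, the most abundant of the 3 member ligand genes (GRCm38 chromosome 2, 172868012 to 172940321, minus strand), did not pass the test. It was counted at 14.1, 12.3 and 8.75 CPM in the controls against 12.5, 15.1 and 9.29 CPM in the cKO libraries. The groups overlapped almost fully, and the log2 fold change was -0.10 (SE 0.17, adjusted p = 0.762). Bmp2 (chromosome 2, 133552159 to 133562885, plus strand), a ligand gene of lower expression, read 1.70, 2.54 and 2.05 CPM in controls 2, 3 and 4. In cKO 1, 2 and 3 Bmp2 stood at 1.5, 1.59 and 2.08 CPM, and the log2 difference was -0.14 (SE 0.24, adjusted p = 0.766). The values overlapped here too, and in either group the set B libraries were the higher ones.

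Bmp4 (chromosome 14, 46383520 to 46390669, minus strand), the dorsal ligand gene, was close to the limit of detection. Controls 2, 3 and 4 gave 39, 4 and 3 reads and cKO 1, 2 and 3 gave 8, 18 and 11 reads. In CPM these were 0.852, 0.120 and 0.0994 against 0.143, 0.249 and 0.374, so that control 2 was the highest library and the other 2 controls the lowest. The log2 fold change was -0.77 (SE 0.74, adjusted p = 0.569), but within set A it was -1.93 and within set B 1.44. Without cKO 3 it was -2.06 (unadjusted p = 0.00585, adjusted p = 0.115, edgeR), and without cKO 1 it was -0.18 (adjusted p = 0.916). The interaction of genotype and set had an unadjusted p of 0.00331 and an adjusted p of 0.734 in edgeR, where 0.024% of all genes passed. Bmp4 shares 89 bases of its exons with the opposite-strand gene Gm15217. Whether reads there could be assigned depends on the strand setting of the counting, which is not given. In bulk RNA, fewer cells of a type and less RNA per cell cannot be told apart, which holds for every level given here.

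Bmpr1b (ENSMUSG00000052430, chromosome 3, 141837136 to 142169425, minus strand), a type I receptor gene known from the ventral retina, rose in the cKO retinas. It stood at 4.87, 12.1 and 7.79 CPM in the controls against 11.8, 15.8 and 28.1 CPM in the cKO libraries. Within set A the cKO libraries (11.8 and 15.8 CPM) were above the control (4.87 CPM), and within set B the cKO library (28.1 CPM) was above both controls (12.1 and 7.79 CPM). The overlap of the groups came from control 3 of set B and cKO 1 of set A. The log2 fold change was 1.5 (SE 0.19, adjusted p = 0.00267, edgeR), a 2.82-fold rise. Set A alone gave 1.48 and set B alone 1.53. The size of its difference was at percentile 97.4 of all genes tested. Control 3, the female control, was also the highest control.

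The call for Bmpr1b did not hold in every fit. Without the set term the log2 fold change was 1.17 (SE 0.45, adjusted p = 0.598), and in that fit 0.216% of all genes passed. With sex as a further term it was 1.12 (SE 0.25, adjusted p = 0.0862), where 1.41% of genes passed, and without cKO 3 it was 1.53 (SE 0.32, adjusted p = 0.0514). Ganglion cell markers moved the same way as Bmpr1b. Their sum was 1015 to 1158 CPM in controls and 1505 to 1908 CPM in cKO, all 7 markers rose, and their part in the rise of Bmpr1b was not tested. The 3 genes whose centred log2 CPM lay closest to that of Bmpr1b over the 6 libraries, among 12122 genes, were Gpr149, Arhgef6 and P2ry12, with root mean square distances of 0.21, 0.23 and 0.23 beside a median of 0.87. P2ry12 is a receptor gene of microglia, whose 7 markers summed to 35.9, 23.5 and 20.9 CPM in the controls and 77.5, 77.5 and 58.4 CPM in cKO. In this sum control 2 was the highest control and cKO 3 the lowest cKO library. In Bmpr1b and P2ry12 control 2 was the lowest control and cKO 3 the highest cKO library. The part of microglia was not tested. P2ry12 itself stood at 3.69, 7.45 and 5.73 CPM in the controls against 6.09, 7.95 and 16 CPM in the cKO libraries.

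Bmpr1a (chromosome 14, 34410734 to 34503341, minus strand), the other type I receptor gene among the members, did not rise with it. It was at 166, 201 and 195 CPM in the controls against 97.3, 137 and 169 CPM in the cKO libraries. The cKO values lay under the controls within each set, and the log2 fold change was -0.37 (SE 0.13, adjusted p = 0.110). Bmpr1a, Smad6 and Smad7 were lower in cKO within each set and Bmpr1b was higher. These 4 of 9 members are near the background share, since 46.7% of all genes tested kept to the same side in each set. In all, 290 bases of Bmpr1a exons overlap the antisense gene Gm17110. Bmpr1a was called in 4 of 15 alternatives, among them DESeq2 (-0.41, adjusted p = 0.0311) and in a fit without cKO 1 (-0.25, adjusted p = 0.0207).

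The 2 type I receptor transcripts of the members stood in another ratio in each group. Per length, Bmpr1b made up 3.02, 6.04 and 4.09% of the sum of Bmpr1a and Bmpr1b in controls 2, 3 and 4 and 11.4, 10.9 and 15.1% in cKO 1, 2 and 3. The groups did not overlap. Of single genes tested, 8.38% had every cKO value above every control, and the share for ratios of 2 genes was not computed. Bmpr1a was the higher of these 2 transcripts in all 6 libraries. The type I receptor genes Acvr1 and Acvrl1, of the further pathway genes listed below, are not in this ratio. Acvr1 stood at 3.95 ± 0.189 RPKM in controls and 3.91 ± 0.505 RPKM in cKO. Acvrl1 stood at 0.237 ± 0.0629 RPKM in controls and 0.543 ± 0.0982 RPKM in cKO. The log2 ratio of Bmpr1b to Bmpr1a was -4.51 ± 0.524 in controls and -2.82 ± 0.288 in cKO (SD, n = 3), a difference of 1.68. An exact 2-sided permutation test gave p = 0.1, the smallest value that 3 against 3 libraries allow. The difference was 2.01 within set A and 1.76 within set B.

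**Figure D2:**
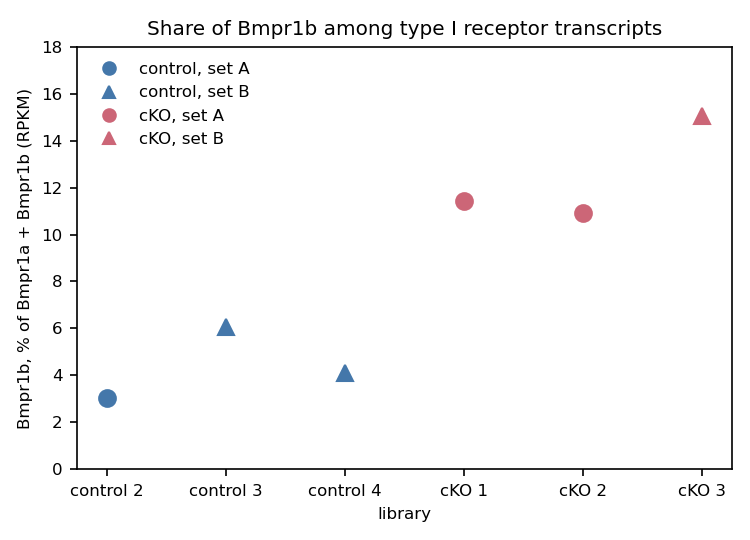
Share of Bmpr1b in the summed RPKM of Bmpr1a and Bmpr1b, in percent, for each library (circles set A, triangles set B, blue control, red cKO). The control libraries lie between 3.02 and 6.04% and the cKO libraries between 10.9 and 15.1%.

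Bmpr2 (chromosome 1, 59763400 to 59879014, plus strand), the type II receptor gene among the members, followed library set, and its genotype difference did not pass the test. It was at 24.9, 96.7 and 95.9 CPM in the controls against 10.7, 21 and 103 CPM in the cKO libraries. Every set B library was above every set A library, whatever the genotype. The difference of set B from set A was 2.33 on the log2 scale (SE 0.25, adjusted p = 4.3e-05), while the genotype difference was -0.26 (SE 0.24, adjusted p = 0.547). Set A alone gave -0.73 and set B alone 0.10. Without control 2 the genotype difference of Bmpr2 was 0.10 (adjusted p = 0.896). With no filter on low counts the difference was -0.29 (adjusted p = 0.0499, edgeR), its 1 call in 15 alternatives. Its merged exons span 17983 bases, the longest of the members. Among the 1453 tested genes with at least 10000 bases of exon, the median difference of set B from set A was 0.62, beside 0.02 over all genes tested. The part of exon length in the set difference of Bmpr2 was not tested. Of the 9 members, 5 differed between sets, 3 of them higher in set B and 2 lower, where 63.7% of all genes did (32.5% higher and 31.2% lower). Bmpr2, Bmpr1b (1.03, SE 0.19) and Bmpr1a (0.39, SE 0.13) were higher in set B, and Smad6 (-0.76, SE 0.17) and Bmp7 (-0.49, SE 0.17) were lower.

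**Figure D3:**
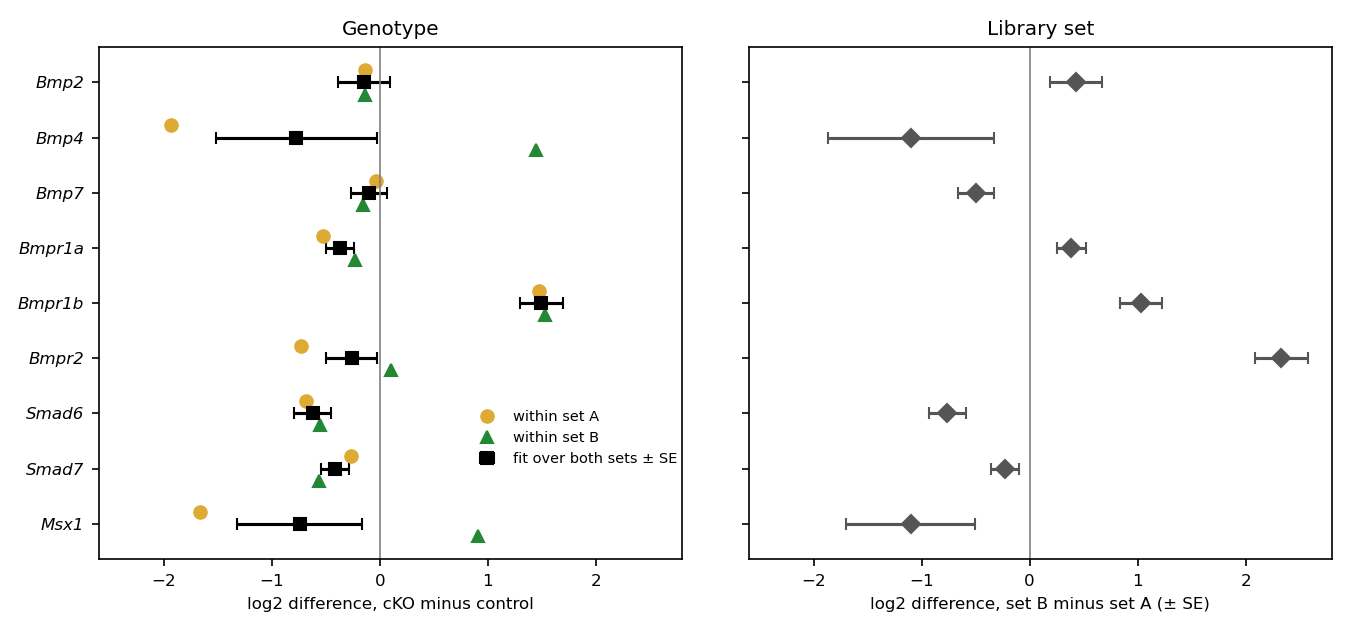
Log2 differences of the 9 tested members between genotypes (left; squares are the fit with library set ± SE, circles and triangles the differences within set A and set B) and between library sets (right; ± SE). Bmpr1b has nearly equal genotype differences in the 2 sets (1.48 and 1.53), Bmp4 and Msx1 have opposite ones, and the set difference of Bmpr2 (2.33) exceeds every genotype difference of a member.

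Smad6 and Smad7, the feedback inhibitors, were lower in cKO within each set but did not pass the test. Smad6 (chromosome 9, 63953076 to 64022059, minus strand) was at 12.6, 6.70 and 7.69 CPM in the controls against 9.23, 6.66 and 4.87 CPM in the cKO libraries. The groups overlapped, and the log2 fold change was -0.62 (SE 0.17, adjusted p = 0.05003), just outside the threshold of 0.05. Under RLE scaling (-0.66, adjusted p = 0.0390), in limma-voom (-0.66, adjusted p = 0.0473) and in DESeq2 (-0.66, adjusted p = 0.00884) Smad6 passed, and with sex as a further term its adjusted p was 0.451. Over 15 alternatives its adjusted p ran from 0.00541 to 0.817, and its fold change was negative in all of them. Smad7 (chromosome 18, 75367529 to 75395935, plus strand) read 28.5, 30.2 and 23.8 CPM in the controls against 24.1, 23.5 and 18.1 CPM in the cKO libraries. Its ranges met between control 4 and cKO 1, and the log2 fold change was -0.41 (SE 0.13, adjusted p = 0.0745). Smad7 was called in 2 of 15 alternatives, among them DESeq2 (-0.45, adjusted p = 0.0196), and over the alternatives the adjusted p ran from 0.0100 to 0.813.

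Msx1 (chromosome 5, 37820485 to 37824583, minus strand), a homeobox repressor gene and BMP target, showed the same arrangement of libraries as Bmp4. There were 57, 6 and 9 reads in controls 2, 3 and 4, or 1.25, 0.179 and 0.298 CPM. The 3 cKO libraries lay between control 2 and the other controls, with 23, 23 and 14 reads, or 0.411, 0.318 and 0.477 CPM. The log2 fold change was -0.74 (SE 0.58, adjusted p = 0.475). Set A alone gave -1.67 and set B alone 0.91 (interaction unadjusted p = 0.00807, adjusted p = 0.948, edgeR). Without control 2 the fold change of Msx1 was 1.0 (SE 0.69, adjusted p = 0.495), and Bmp4 no longer passed the filter. Opposite sides in the 2 sets were seen for 13.8% of genes tested. The summed level of 10 markers of mesenchyme, sclera and cornea was also highest in control 2, at 23.6 CPM against 8.05 and 6.46 CPM in the other 2 controls and 8.18, 20.8 and 16.4 CPM in the cKO libraries. Of these markers 7 passed the filter and 0 changed, Krt5 stayed under 0.1 CPM in every library, and their part in the Bmp4 and Msx1 values was not tested. Of 10 ciliary margin markers 5 rose in cKO and 0 fell. They summed to 364 CPM in control 2, the lowest of the 6 libraries, whose others gave 376 to 538 CPM, and Mab21l1, Zic1 and Zic2 made up most of that sum. Among controls, the ciliary markers Wfdc1, Aqp1, Cdo1, Slc4a5 and Wls were highest in control 2, as Msx1 was. Otx1, Opcml, Zic1 and Zic2 were lowest there, and Mab21l1 lay between. Wfdc1 stood at 9.99, 0.987 and 1.13 CPM in the controls against 9.89, 8.61 and 4.05 CPM in the cKO libraries. The part of ciliary margin cells in the Msx1 and Bmp4 values was not tested.

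Msx2 (chromosome 13, 53466884 to 53473074, minus strand), the paralog of Msx1, was barely detected and did not pass the filter. It had 2, 2 and 0 reads in controls 2, 3 and 4 and 1, 1 and 0 reads in cKO 1, 2 and 3. A count of 0 allows up to 3 reads, counting error only. By library size without TMM scaling this is 0.0917 CPM in control 4 and 0.0953 CPM in cKO 3. A difference of Msx2 between genotypes was therefore not detectable at this depth.

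Beyond the 10 members, 64 further genes of the BMP pathway were listed, of which 52 passed the filter. With library set as a term 6 rose, 8 fell and 38 did not pass, which is 26.9% called where 12% of all genes were. The median difference of the 52 genes was 0.02 in log2 terms, beside -0.001 over all genes. Without the set term 0 of the 52 passed in edgeR, where 11 had an unadjusted p under 0.05, and with sex as a further term 2 passed, Gdf10 and Id1. Without control 2 the count was 9 and without cKO 3 it was 7.

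The falls lay mostly among target genes, where 7 of 10 tested genes fell and 0 rose (median -0.79), beside 5.63% of all genes tested that fell. The list was chosen with earlier results of these data known. Id1, an inhibitor of basic helix-loop-helix factors and a direct Smad target, had a log2 difference of -1.5 between genotypes (SE 0.16, adjusted p = 0.00114), the largest fall of the list. Its values were 89.5, 87.1 and 88.6 CPM in the controls against 41.7, 27 and 28.7 CPM in the cKO libraries, with no overlap. Id2 (-1.25, SE 0.13) and the helix-loop-helix gene Atoh8 (-1.03, SE 0.13) also fell. The T-box genes of the dorsal eye fell too, with Tbx2 at -0.85 (SE 0.09), Tbx5 at -0.84 (SE 0.18) and Tbx3 at -0.75 (SE 0.08), and so did Hey1 (-0.50, SE 0.11). Tbx5 was at 6.93, 10.8 and 11.6 CPM in the controls against 3.14, 3.07 and 7.86 CPM in the cKO libraries. Id3 (-0.44, adjusted p = 0.0809), Id4 (0.19, adjusted p = 0.25) and the ventral gene Vax2 (0.23, adjusted p = 0.231) did not pass. Progenitor markers fell alongside these genes, from a sum of 6111 to 6494 CPM in controls to 3063 to 4149 CPM in cKO, and their part was not tested. The call for Hey1 held in 9 and that for Tbx5 in 11 of 15 alternatives, and both were lost without control 2.

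Among other ligands, 1 of 7 tested genes rose and 1 fell, where 6.36% of all genes tested rose and 5.63% fell. Gdf10, which encodes a ligand close to BMP3, rose from 3.23, 1.91 and 1.76 CPM in the controls to 12, 10.5 and 9.77 CPM in the cKO libraries (2.09 on the log2 scale, SE 0.19, adjusted p = 0.000454). Every cKO library was above every control. Bmp3 fell from 1.82 ± 0.479 CPM to 0.743 ± 0.212 CPM, a log2 difference of -1.19 (SE 0.32, adjusted p = 0.0424). That call was lost in 8 of 15 alternatives. Gdf6, a ligand gene of the dorsal eye, was at 5.21 to 8.09 CPM in controls and 4.90 to 6.85 CPM in cKO and did not pass (-0.25, adjusted p = 0.368).

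Of 9 other receptor and co-receptor genes 3 rose and 0 fell, where 6.36% of all genes tested rose and 5.63% fell. Rgmb, a BMP co-receptor of the repulsive guidance molecule family, rose from 16.8 ± 6.41 to 34 ± 7.75 CPM (0.79 in log2 terms, SE 0.10, adjusted p = 0.00276). Eng, an endothelial co-receptor gene, rose from 1.27 ± 0.252 to 5.46 ± 1.71 CPM (2.02, SE 0.29, adjusted p = 0.00430), and Acvrl1, an endothelial type I receptor gene, from 1.01 ± 0.268 to 2.32 ± 0.419 CPM (1.14, SE 0.30, adjusted p = 0.0404). Of the endothelial markers 7 of 10 rose, among them Cdh5 (2.13) and Pecam1 (1.70), and Kdr, also a gene of progenitors, fell (-0.71). With Kdr, the list summed to 542 to 707 CPM in controls and 282 to 498 CPM in cKO. Their part in Eng and Acvrl1 was not tested. The calls for Rgmb and Eng were lost with sex as a further term and without cKO 3, and that for Acvrl1 in 9 of 15 alternatives.

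Secreted antagonists and modulators numbered 16 tested genes, of which 2 rose and 0 fell. This is near the background share, since 12% of all genes tested were called. Crim1, a membrane-anchored protein that binds BMPs, rose from 68.1 ± 9.0 to 117 ± 46.8 CPM (0.93 in log2 terms, SE 0.13, adjusted p = 0.00436), with no overlap of the groups. Fst, the secreted antagonist follistatin, rose from 2.73 ± 0.699 to 4.49 ± 1.71 CPM (0.94, SE 0.21, adjusted p = 0.0208). The call for Crim1 was lost in 3 and that for Fst in 6 of 15 alternatives, without cKO 3 in either case. Nog, which encodes the antagonist noggin, was at 0.795 to 1.35 CPM in controls and 1.51 to 2.38 CPM in cKO without passing (0.94, adjusted p = 0.0950). The Smad transducers did not pass in any of 4 cases, with Smad1 at 0.01, Smad5 at -0.17, Smad4 at -0.19 and Smad9 at -0.34 on the log2 scale. Of the 6 inhibitors inside the cell 0 passed in edgeR, where Bambi (-0.47, unadjusted p = 0.0112) and Smurf1 (0.25, unadjusted p = 0.0120) had an unadjusted p under 0.05.

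**Figure D4:**
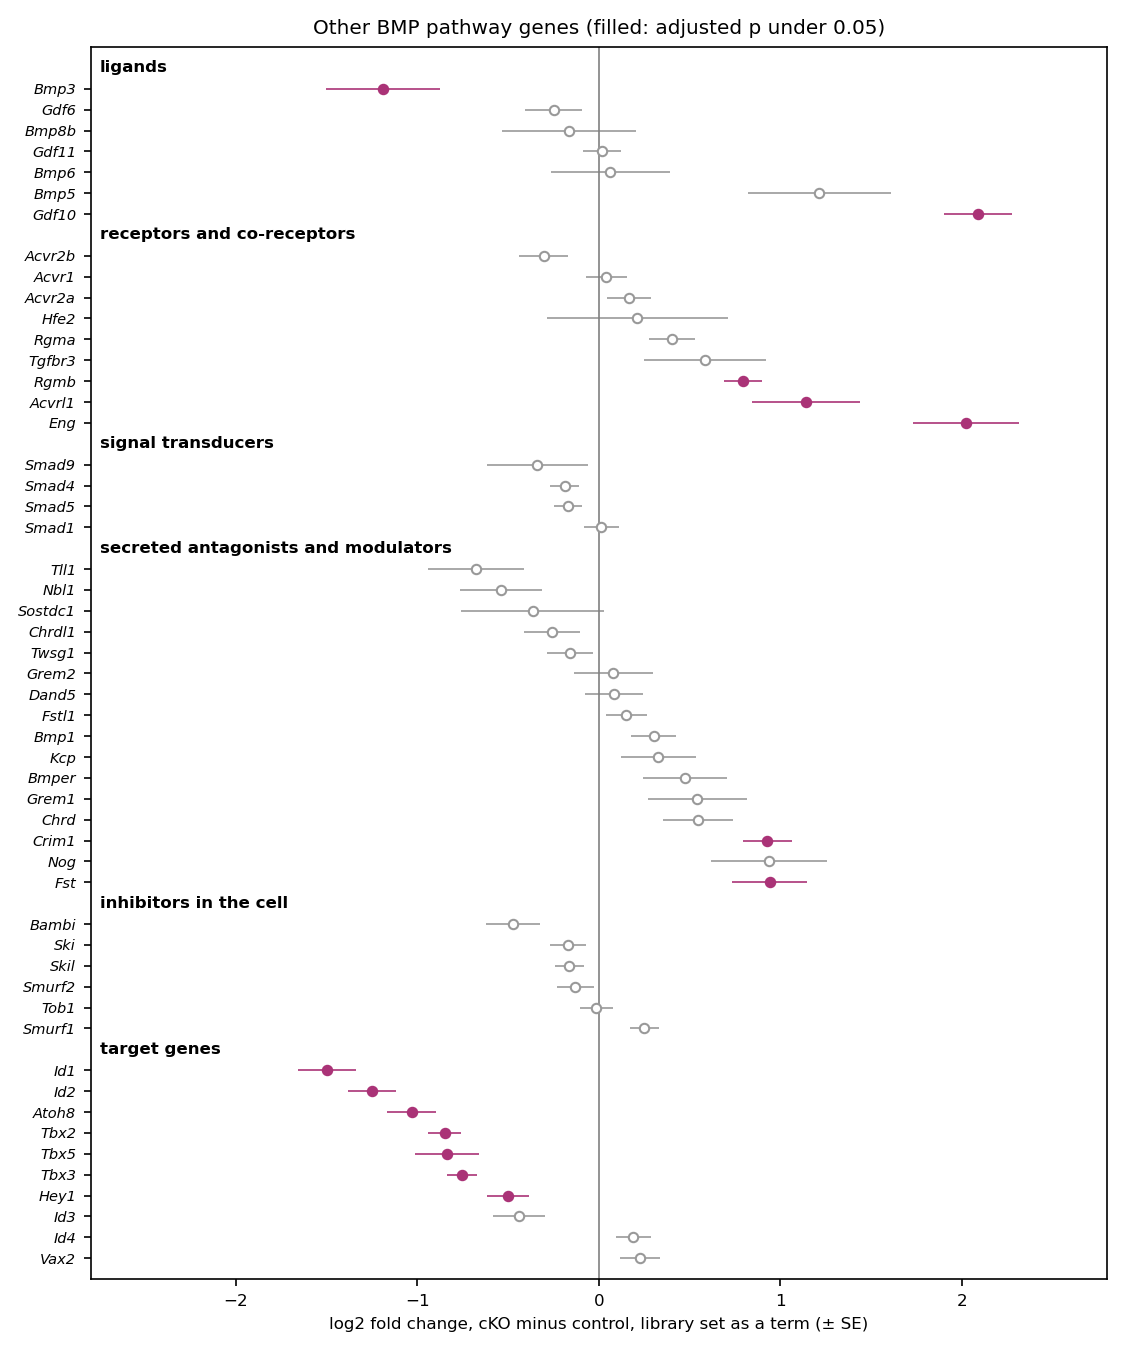
Log2 fold change (cKO minus control, library set as a term, ± SE) of the 52 tested genes of the wider BMP pathway list by role, with filled points at adjusted p under 0.05. The 7 filled target genes lie at -0.50 or lower, and filled points on the right are Gdf10, Eng, Acvrl1, Rgmb, Fst and Crim1.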

How the data were processed

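The authors deposited raw read counts for each Ensembl gene of 3 control and 3 cKO retinas. GRCm38, HTSeq, STAR and edgeR are named in the submitters' processing notes. Versions and the strand setting: not given in the sources used here. Symbols, coordinates and exon lengths came from GENCODE M21 on GRCm38 (95.99% of identifiers matched). The 5 rows that name no gene held 26.4 to 28.8% of counts and stayed out. Groups follow the titles, and the series text gives 3 mice per genotype. Libraries of a group differed by at least 24.8 times the chi-square expected from counting.

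In R 4.3.3, edgeR 4.0.16 kept 16691 genes (filterByExpr), scaled by TMM and tested genotype with library set as a term (glmQLFit, glmQLFTest, 2-sided, Benjamini-Hochberg over all genes, threshold 0.05, 3 residual degrees of freedom). Set A had over 2.9% ambiguous counts. SEs come from the fold change and F. Within-set differences use log2 CPM with a prior count of 2. On simulated counts for this comparison over 16691 genes, 70% of genes raised and 72% of genes lowered 2-fold were recovered, and 98% and 88% of those raised and lowered 4-fold. Alternatives used limma 3.58.1, DESeq2 1.42.0, other scalings and filters, sex, label number and leaving out each library. Intervals of counts cover counting error only. The members, lists and tests were chosen with earlier results of these data known. Named genes are the members, Lhx2, listed pathway genes past the threshold and the 3 genes closest to a called member (mean CPM of at least 2); other pathway genes and markers were named after their values were seen.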

Additional observations from a re-analysis of the deposited data

How the results depend on the processing

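Bmpr1b kept its direction in all 15 alternatives (1.12 to 1.64 on the log2 scale) and its call in 12. The count of 2001 genes called became 36 without the set term, 236 with sex as a further term and 3063 with no filter on low counts, and 310 to 2707 when 1 library was left out (720 without control 2, 997 without control 3, 1268 without control 4, 1490 without cKO 2 and 310 without cKO 3). DESeq2 called 1204 higher and 1672 lower genes, against 1062 and 939. Of the members, 0 were called without the set term or with sex as a further term (1 and 2 had an unadjusted p under 0.05), 2 under RLE scaling, 2 in limma-voom, 4 in DESeq2, 5 with no filter, and 0 (without cKO 3) to 3 (without cKO 1) with a library left out. The wider list's 14 calls became 0 without the set term, 2 with sex and 7 to 17 with a library left out. The cause of these changes was not tested. Directions reversed, none with a call, for Bmp7 without the set term (0.0723), without control 3 (0.0105) and without cKO 3 (0.0005), for Bmp4 and Msx1 with sex (0.49 and 0.61), and without control 2 for Msx1 (1.0) and Bmpr2 (0.10). With a library left out, Bmp4 ran from -2.06 to -0.18 where tested, Bmp7 from -0.19 to 0.0105, Bmpr2 from -0.62 to 0.10 and Msx1 from -1.75 to 1.0. The log2 ratio of Bmpr1b to Bmpr1a was 1.43 to 1.95 with a library left out.

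The groups share the label numbers 2 and 3, and same-numbered libraries deviated together (correlations 0.833 and 0.785), but they are also of the same library set. A fit with the number as a replicate block, which takes the place of set, leaves 1 residual degree of freedom. In it cKO 1 and control 4 share their number with no other library. The genotype difference therefore rests on the pairs numbered 2 and 3. There 3 members were called, Bmpr1b (1.45, adjusted p = 0.00369), Bmpr1a (-0.27, 0.0398) and Smad6 (-0.71, 0.0485), and 2040 genes and 12 list genes in all. The planned ratio of Msx2 to Msx1 was not run, since Msx2 had at most 2 reads in a library. Bmp4 was not tested without control 2, nor Bmp4 and Msx1 with a minimum mean of 1 CPM, and depth limits Bmp4, Msx1 and Msx2 throughout.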

Other observations

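The 12 genes of the wider list that did not pass the filter stayed at or under 0.286 CPM in every library. Of these, Bmp10, Gdf7 and Sost had 0 reads in all 3 controls, and Gdf7, a ligand gene of the dorsal neural tube, reached 0.0357, 0.0415 and 0.0340 CPM in cKO 1, 2 and 3. At such counts no difference was detectable. The antagonist genes with the highest levels were Fstl1, at 126 to 159 CPM in controls and 144 to 182 CPM in cKO, and Twsg1, at 129 to 141 and 94.2 to 141 CPM, and neither passed the test (adjusted p = 0.447 and 0.477, edgeR). Chrdl1, the retinal antagonist also called ventroptin, was at 26.2, 25.4 and 20.7 CPM in the controls against 16.4, 22.2 and 22 CPM in the cKO libraries (log2 fold change -0.26, adjusted p = 0.339).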
